A study of Homo sapiens with 16 samples.

Results

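The comparison described here asks what the kinase inhibitor H89 did by itself to the transcripts of resting human skin fibroblasts. Samples were chosen by their treatment label: 3 libraries of cells given H89 and no mitogen, and 4 labelled as untreated, which made 7 of the 16 samples of the series. Control 4 equalled control 3 at all 19340 genes that either library detected, so this control was counted once, and 6 of the 15 distinct libraries entered the comparison as 3 against 3. The cells were CCD-1070Sk, an established line of normal skin fibroblasts, and all groups had been starved of serum. The H89 group had 10 µM H89 for 30 min and is labelled 0 h, and the controls had no treatment and are labelled 0 h. The protocol also describes a second scheme in which the inhibitor stayed on the cells together with a mitogen. Libraries of cells given epidermal growth factor (EGF, 30 ng/ml) or the phorbol ester TPA (100 nM) for 1 h, with or without H89, are cited only beside the H89 values. Nothing in the labels says that replicates were separate cultures, so p-values measure the spread between these libraries, which may be technical. The samples were bulk RNA, in which fewer cells of a type and less RNA per cell cannot be told apart.

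H89 competes with ATP at the catalytic subunit of protein kinase A (PKA), the kinase that cyclic AMP releases from its regulatory subunits. It also blocks MSK1 and MSK2, encoded by RPS6KA5 and RPS6KA4, which phosphorylate histone H3 and the transcription factor CREB after mitogens, and at similar doses it inhibits S6 kinase, ROCK and other AGC kinases. CREB and its relatives bind the cyclic AMP response element (CRE) in the promoters of many immediate-early genes. In fibroblasts without serum these genes are normally quiet.

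Total counts were 43565645, 20113265 and 33648925 in control 1, 2 and 3, and 28160371, 54594906 and 68230979 in H89 1, 2 and 3. The 6 libraries were of 3 kinds, told apart by the counts alone. Control 2 and H89 1 gave 30.4% and 26.3% of their counts to the ribosomal RNA genes RNR1 and RNR2 (called rRNA-rich below), while control 3, H89 2 and H89 3 had 0 counts there (rRNA-free). Control 1 had more genes at 1 count (1185) than at 2 counts (785), the reverse of the other 5, and is called low-count. It shared its kind with no H89 library, so that kind and the control group cannot be told apart in its values. Levels are given as CPM, the read count scaled to the size of the library. Of 10800 genes with a mean of at least 5 CPM, control 1 lay at least 2-fold above the other 5 libraries at 395 and below them at 760. H89 3 did so at 65 (0.602%) and 57 (0.528%), and each of the other 4 libraries at 0 to 3 and 1 to 9. H89 3 is therefore given apart from H89 1 and H89 2 throughout. The mean of 5 CPM includes control 1. A gene high in control 1 alone can thus pass it and count among the 395 or the 57. SNORD113-6, among the 57, stood at 106 CPM in control 1, at most 0.300 CPM in the other 5 libraries and 0.0141 CPM in H89 3. The 3 single-library differences in log2 CPM were used beside the fit over all libraries. H89 1 minus control 2 is the rRNA-rich pair, and H89 2 minus control 3 is the rRNA-free pair. H89 3 minus control 3 shares its control with the rRNA-free pair, because the untreated sample that stands with H89 3 in the running sample names held the counts of control 3. Whether that repeat is an error was not settled by the files, so H89 3 may lack a control of its own, and differences between sets of samples cannot be told apart from the treatment in each H89 3 minus control 3 value.

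No gene passed the test of H89 against control. After Benjamini-Hochberg adjustment of the quasi-likelihood p-values of edgeR, 0 of 18575 genes were called higher (0%) and 0 lower (0%). The lowest adjusted p was 1.00, which therefore holds in this edgeR fit for each tested gene named here. At an unadjusted p under 0.05 there were 608 genes (3.27%), of which 49 were higher (0.264%) and 559 lower (3.01%). The median log2 fold change over all tested genes was -0.05, and 45.2% of genes had a positive one. limma-voom with library weights called 0 genes and DESeq2 called 4, all lower: KSR2, SBF1P1, FUT9 and MUC16. Each of these 4 had counts in control 1 alone, at 2.00, 2.32, 2.28 and 4.58 CPM, and 0 in the other 5 libraries.

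In the 2 pairs of like libraries, without control 1 and H89 3, a few genes stood apart in the same direction. These pairs share no library. Over 10683 genes with a mean of at least 5 CPM in the 4 libraries, the differences of the pairs had the same sign at 48.9% of genes, and across genes Pearson's r was 0.02 (Spearman's rank correlation -0.01). The SD of the differences was 0.21 in the rRNA-rich pair and 0.27 in the rRNA-free pair on the log2 scale. A difference of at least 2-fold was seen at 22 genes (0.206%) in the rRNA-rich pair, 15 of which had the same sign in the rRNA-free pair, and at 60 genes (0.562%) in the rRNA-free pair, 41 of which had the same sign in the rRNA-rich pair. Genes past 2-fold in both numbered 4 (0.0374%), with 0 of opposite sign: EGR1, FOS and MMP3 were higher with H89, and DDIT4 was lower. With genes down to a mean of 1 CPM included, 20 genes were past 2-fold in both pairs, 6 higher and 14 lower, and 8 were past 2-fold with opposite sign. A fit of these 4 libraries alone, with a term for their kind, was added after seeing the data. It called 48 of 15172 genes, 13 higher and 35 lower, with EGR1, FOS, MMP3 and DDIT4 among them, but it has 1 residual degree of freedom and takes its spread from other genes. These 4 genes were singled out in the same 4 libraries, so their calls add no support. A call also does not require the pairs to agree. EGR3 was called lower at -1.96 although its pair differences, given below, had opposite signs.

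**Figure D1:**
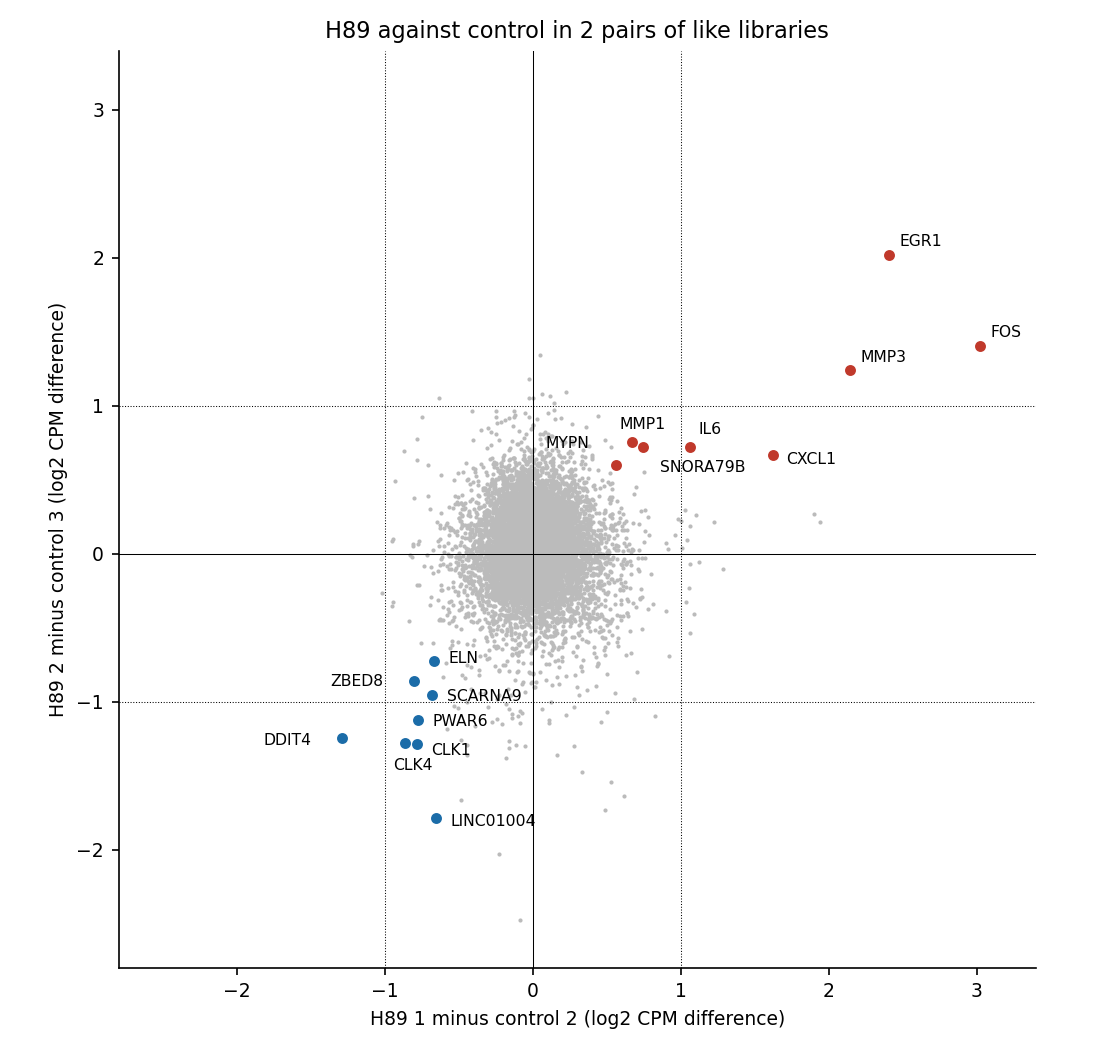
Each point is 1 of 10683 genes, with the log2 CPM difference H89 1 minus control 2 on the x axis and H89 2 minus control 3 on the y axis. Dotted lines mark 2-fold, and the 8 genes furthest up and the 8 furthest down in both pairs are labelled. The cloud has no slope (r = 0.02), while EGR1, FOS and MMP3 stand alone at the upper right and DDIT4 at the lower left.

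EGR1, a zinc finger transcription factor of the immediate-early response, stood at 32.8, 7.98 and 20.8 CPM in control 1, 2 and 3 and at 42.6, 84.6 and 15.3 CPM in H89 1, 2 and 3. H89 1 and H89 2 were above all controls, and H89 3 lay between control 2 and control 3, so the groups overlap. The differences were 2.41 in the rRNA-rich pair and 2.02 in the rRNA-free pair, against -0.44 for H89 3. In the fit over all libraries the log2 fold change was 1.21 ± 0.64 (SE). FOS, the partner of JUN in the AP-1 factor, stood at 138, 5.10 and 15.7 CPM in the controls and at 41.7, 41.8 and 14.3 CPM with H89. Control 1 was thus the highest of the 6 for FOS, H89 1 and H89 2 were nearly equal, and H89 3 was close to control 3. Its pair differences were 3.02, 1.41 and, for H89 3, -0.13. Its fitted log2 fold change was -0.70 ± 0.86, and 1.64 without control 1. MMP3, the matrix protease stromelysin 1, stood at 14.7, 7.44 and 36.5 CPM in the controls and at 33.0, 86.1 and 40.3 CPM with H89, with pair differences of 2.14, 1.24 and 0.14. H89 2 was the highest library and control 2 the lowest, and the groups overlap. For scale, EGR1 stood at 68.7, 216 and 268 CPM in EGF 1, 2 and 3 and at 465 and 533 CPM with TPA. H89 2, at 84.6 CPM, was above EGF 1, a low-count library, but below EGF 3, which is rRNA-free as H89 2 is. FOS stood at 230.5, 174 and 90.3 CPM with EGF and at 785 and 1081 CPM with TPA. In the presence of EGF, H89 gave differences of 0.10 and 0.07 for EGR1 and 0.45 and 1.25 for FOS, in rRNA-rich and rRNA-free libraries.

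The promoters of EGR1 and FOS are shown because both genes are known targets of CREB, which lies downstream of the kinases H89 inhibits, and those of CLK1 and CLK4, described next, because these related genes were lower in both pairs. Each is the 250 bases before the gene's start, 5′ to 3′ on the gene's strand, from RefSeq (GRCh38.p14). Capitals mark TGACG, the core of the CRE, or its reverse complement CGTCA. The positions are chr5:138465229-138465478 on the plus strand for EGR1, chr14:75278578-75278827 on the plus strand for FOS, chr2:200864659-200864908 on the minus strand for CLK1 and chr5:178627051-178627300 on the minus strand for CLK4.
EGR1: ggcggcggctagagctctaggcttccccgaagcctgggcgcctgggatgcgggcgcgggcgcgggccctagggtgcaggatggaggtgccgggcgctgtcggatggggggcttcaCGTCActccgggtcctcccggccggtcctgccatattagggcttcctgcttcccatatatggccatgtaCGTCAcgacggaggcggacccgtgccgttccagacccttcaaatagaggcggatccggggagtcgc
FOS: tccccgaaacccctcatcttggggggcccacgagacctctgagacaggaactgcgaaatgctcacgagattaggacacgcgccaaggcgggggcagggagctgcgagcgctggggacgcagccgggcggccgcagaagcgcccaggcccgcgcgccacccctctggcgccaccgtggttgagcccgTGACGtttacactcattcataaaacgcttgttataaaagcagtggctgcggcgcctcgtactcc
CLK1: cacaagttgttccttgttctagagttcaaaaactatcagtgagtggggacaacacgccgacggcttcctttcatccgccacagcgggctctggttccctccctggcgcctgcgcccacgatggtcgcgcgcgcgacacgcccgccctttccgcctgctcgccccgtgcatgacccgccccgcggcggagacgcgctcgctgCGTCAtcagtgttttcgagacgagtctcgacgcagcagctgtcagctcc
CLK4: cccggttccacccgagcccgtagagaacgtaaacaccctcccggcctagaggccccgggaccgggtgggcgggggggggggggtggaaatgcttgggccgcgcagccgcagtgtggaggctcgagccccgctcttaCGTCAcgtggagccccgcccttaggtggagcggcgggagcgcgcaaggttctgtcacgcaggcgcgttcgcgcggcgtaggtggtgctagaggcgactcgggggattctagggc
EGR1 has the core at 135 and 66 bases before the start, FOS at 64, CLK1 at 49 and CLK4 at 114. A promoter holding this short word is common: 25.0% of the 27305 RefSeq promoters of 300 bases (250 before and 50 after the start) held it on either strand, as did 31.8% of the 13771 tested genes with a promoter there. Among cyclic AMP and CREB target genes 10 of the 18 with a RefSeq promoter held it (55.6%), and among immediate-early genes 13 of 21 (61.9%). The full element TGACGTCA, which contains the core on both strands, was in 1 of the 18, in 1.98% of all promoters and in 2.89% of those of tested genes. The core was thus present in genes that were higher and in genes that were lower in both pairs.

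DDIT4, an inhibitor of the growth kinase complex mTORC1 also known as REDD1, was the gene past 2-fold on the lower side. It stood at 224, 83.1 and 72.1 CPM in the controls and at 34.0, 30.3 and 106 CPM with H89. H89 1 and H89 2 were below every control, and H89 3 was above control 2 and control 3. Its pair differences were -1.29, -1.25 and, for H89 3, 0.55. CLK1, a kinase that phosphorylates SR splicing factors, stood at 44.2, 94.1 and 98.7 CPM in the controls and at 54.6, 40.4 and 25.9 CPM with H89. CLK4, its close relative, stood at 12.4, 27.7 and 28.0 CPM in the controls and at 15.2, 11.5 and 7.89 CPM with H89. For both kinases all H89 libraries were below control 2 and control 3, and control 1 lay inside the H89 range. The pair differences were -0.78 and -1.29 for CLK1 and -0.86 and -1.28 for CLK4, and the difference of H89 3 from the same control 3 was -1.93 and -1.82. Fitted log2 fold changes were -0.97 ± 0.35 for CLK1 and -0.98 ± 0.37 for CLK4, and neither passed the test.

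With EGF the lower level of CLK1 was not seen. It stood at 81.8 and 73.0 CPM with EGF and at 102 and 91.9 CPM with EGF and H89, in rRNA-rich and rRNA-free libraries in that order, which are differences of 0.31 and 0.33. EGF 1, a low-count library without a partner of its kind, stood at 55.6 CPM. The interaction of H89 with EGF was 1.44 ± 0.51 for CLK1 (adjusted p = 1.00 in edgeR), so the difference between the effects did not pass the test. CLK4 gave -0.31 and -0.13 with EGF, and its interaction was 1.01 ± 0.54. DDIT4 stood at 20.1 and 46.4 CPM with EGF and at 46.6 and 78.8 CPM with EGF and H89, differences of 1.21 and 0.76 where H89 alone gave -1.29 and -1.25. The interaction was 1.37 ± 0.92 and did not pass the test either. CLK1, CLK4 and DDIT4 were picked for their differences with H89 alone, a choice that favours smaller effects with EGF.

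**Figure D2:**
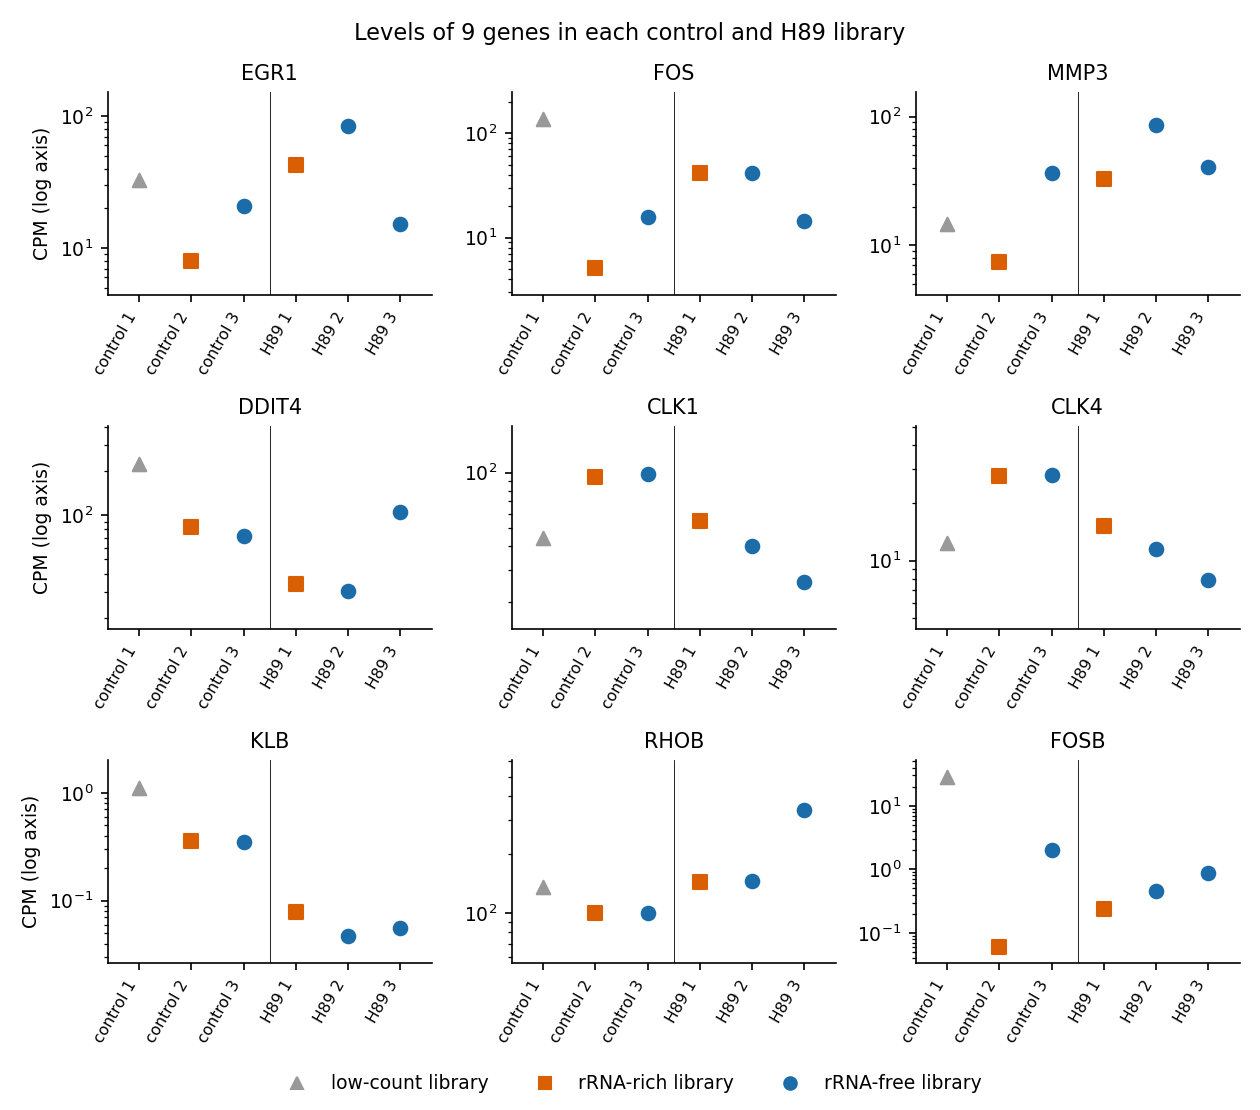
CPM of 9 genes (log axis) in control 1, 2 and 3 and in H89 1, 2 and 3, 1 point per library, with colour and shape for the kind of library. For EGR1 and FOS the 2 libraries H89 1 and H89 2 are each above the control of the same kind and H89 3 is level with control 3. For CLK1, CLK4 and KLB all 3 H89 libraries are below control 2 and control 3.

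The other genes furthest up in both pairs were 2 inflammatory mediators, a collagenase, a muscle protein and a small nucleolar RNA. IL6, a cytokine, stood at 3.21, 12.4 and 23.8 CPM in the controls and at 26.04, 39.2 and 11.55 CPM with H89. CXCL1, a neutrophil chemokine, stood at 0.217, 6.12 and 30.6 CPM in the controls and at 19.0, 48.6 and 8.80 CPM with H89. MMP1, interstitial collagenase, stood at 62.5, 237 and 374 CPM in the controls and at 376, 632 and 130.0 CPM with H89. At these 3 genes H89 1 and H89 2 exceeded the like control while H89 3 was below control 3, with differences of -1.04, -1.79 and -1.52, and control 1 was the lowest library. MYPN, a sarcomere protein, was the exception, with all H89 libraries (8.26, 9.83 and 12.47 CPM) above all controls (4.30, 5.58 and 6.47 CPM). SNORA79B, a guide RNA for pseudouridylation, followed the kind of library more than the treatment, at 53.04 CPM in control 1, 9.66 and 16.2 in the rRNA-rich pair and 0.598 and 1.01 in the rRNA-free pair.

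On the lower side the remaining genes of both pairs were LINC01004, PWAR6, SCARNA9, ZBED8 and ELN. LINC01004, a long noncoding RNA, stood at 1.63, 5.40 and 11.1 CPM in the controls and at 3.41, 3.20 and 2.70 CPM with H89. PWAR6, a noncoding transcript of the Prader-Willi region, stood at 1.06, 6.06 and 7.32 CPM in the controls and at 3.52, 3.34 and 2.87 CPM with H89. ZBED8, a gene derived from a transposase, stood at 2.98, 12.8 and 9.69 CPM in the controls and at 7.32, 5.30 and 4.10 CPM with H89. For all 3, the H89 libraries lay together below control 2 and control 3 and above control 1. SCARNA9, a small RNA that guides modification of spliceosomal RNAs, was lower in all H89 libraries (4.86, 4.65 and 2.67 CPM) than in all controls (29.8, 7.80 and 9.06 CPM). ELN, elastin, was lower in H89 1 and H89 2 (9.87 and 13.6 CPM) than in control 2 and control 3 (15.7 and 22.4 CPM), but stood at 58.8 CPM in H89 3. Reads of small RNAs inside introns can also come from the host transcript, so their counts are less certain than those of the coding genes.

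No 2-fold difference was seen in the transcripts of the kinases that H89 blocks. Of 20 target kinases and PKA subunits 0 were called, 0 had an unadjusted p under 0.05 and 0 differed by 2-fold in any of the 3 single-library differences. Over all tested genes a 2-fold higher value was seen at 6.06% in the rRNA-rich pair, 1.90% in the rRNA-free pair and 4.13% in H89 3, and a 2-fold lower one at 4.50%, 7.34% and 13.8%. Those shares include genes of low level, while the median level of the 20 was 65.9 CPM in control 2. At a mean of at least 5 CPM, 2-fold differences either way were seen at 0.206% in the rRNA-rich pair and 0.562% in the rRNA-free pair. In these pairs 0 of 20 is thus near the share over genes of such levels. PRKACA, the main catalytic subunit of PKA, stood at 42.5, 52.9 and 34.5 CPM in the controls and at 43.9, 52.5 and 53.5 CPM with H89. PRKACB, a second catalytic subunit, stood at 30.0, 67.5 and 46.7 CPM in the controls and at 62.6, 60.3 and 66.4 CPM with H89. RPS6KA4, which encodes MSK2, stood at 59.1, 39.3 and 50.2 CPM against 41.7, 49.4 and 72.0 CPM. Its relative RPS6KA5, which encodes MSK1, was the member with non-overlapping groups: its controls were at 1.65, 1.62 and 2.04 CPM and its H89 libraries at 0.861, 1.39 and 1.03 CPM. The fitted log2 fold change of RPS6KA5 was -0.69 ± 0.70, and over all tested genes 4.25% had all H89 libraries below all controls.

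Of genes that make, break down or buffer cyclic AMP 0 of 26 were called, with a fitted median of -0.16. In H89 3, 6 of the 26 were at least 2-fold lower, against 13.8% of all genes. PDE3A, a phosphodiesterase, had an unadjusted p under 0.05, at 6.58, 5.88 and 3.29 CPM in the controls and 3.84, 2.63 and 2.43 CPM with H89 and a fitted log2 fold change of -0.83 ± 0.33. AKAP12, which anchors PKA, was set by single libraries, at 409.9 CPM in control 1 and 38.0 CPM in H89 3 against 80.7 to 88.7 CPM in the other 4. Of the CREB family and its coactivators 0 of 13 were called and 0 had an unadjusted p under 0.05. Of these, CREB1 itself stood at 42.3, 49.5 and 57.4 CPM in the controls and at 53.5, 53.6 and 49.6 CPM with H89.

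Targets of cyclic AMP and CREB had no common direction. Of 20 tested members 8 had a positive fitted value, 0 were called, and the median was -0.10. The median difference was 0.20 in the rRNA-rich pair, with 13 of 20 positive against 46.9% of all genes. It was -0.08 in the rRNA-free pair with 9 of 20 positive, where the share over all genes was also 46.9%, and -0.63 in H89 3 with 4 of 20 positive against 45.2%. FOS and IL6, described above, are members. NR4A1, an orphan nuclear receptor induced by cyclic AMP, stood at 12.9, 2.04 and 8.91 CPM in the controls and at 2.51, 2.71 and 5.31 CPM with H89, and its relative NR4A2 at 1.48, 0.900 and 1.47 CPM against 0.548, 0.823 and 0.579 CPM. NR4A2 and RGS2, a regulator of G protein signalling, were the members with all H89 libraries below all controls, which held for 4.25% of all tested genes. RGS2 stood at 27.6, 25.6 and 20.1 CPM in the controls and at 19.7, 14.6 and 10.49 CPM with H89. PTGS2, the inducible cyclooxygenase, stood at 12.1, 33.4 and 55.2 CPM against 56.4, 67.8 and 52.98 CPM. SIK1 had 0 counts in every library and was not tested.

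Of the 26 immediate-early transcription factors 10 had a positive fitted value, against 45.2% of all genes, with a median of -0.13. Among them 0 were called and 2 were lower at an unadjusted p under 0.05 (FOSB and EGR4), against 3.01% of all genes. FOSB stood at 28.8, 0.0600 and 1.99 CPM in the controls and at 0.235, 0.459 and 0.890 CPM with H89, so its fitted log2 fold change of -4.23 ± 1.24 rested on control 1. Among the 6 libraries EGR4 had counts in control 1 alone. EGR3 was high in control 3, at 13.8 CPM, against 5.39 and 1.14 CPM in the other controls and 1.57, 1.44 and 3.29 CPM with H89. EGR1 and FOS were thus higher in both pairs while the related EGR3 and FOSB were lower in the rRNA-free pair, at -3.22 and -2.02, and higher in the rRNA-rich pair, at 0.44 and 1.43. The last value is poorly known, since FOSB had 1 count in control 2 and 6 in H89 1.

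KLB had the lowest p among the genes named here. It encodes beta-Klotho, the coreceptor that lets FGF receptors bind endocrine FGFs. Its counts were 51, 6 and 14 in the controls and 2, 3 and 4 with H89, or 1.11, 0.360 and 0.349 CPM against 0.0783, 0.0475 and 0.0565 CPM. Every H89 library was below every control, and the 3 differences were -1.73, -2.11 and -1.98. The fitted log2 fold change was -3.34 ± 0.71, and it did not pass the test. With counts of 2 to 4 in the H89 libraries the size of that difference is poorly known. Its EGF libraries stood at 1.65, 1.12 and 0.578 CPM and its EGF+H89 libraries at 0.362 and 0.308 CPM, which gave differences of -1.52 and -0.82 within like libraries. Its TPA libraries stood at 1.33 and 0.744 CPM and its TPA+H89 libraries at 1.46 and 0.565 CPM. The list of FGF receptors and Klotho coreceptors as a whole had 0 of 14 called and 1 at an unadjusted p under 0.05, which was KLB.

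Among genes of at least 1 CPM, the 6 lowest p-values on the higher side belonged to STX11, CMPK2, BIRC5, NETO2, TMEM154 and MYPN, with p between 0.00969 and 0.0124. Genes on either side were picked by p in this same comparison, so separation of the groups largely follows from that choice. All 6 on the higher side had every H89 library above every control, which held for 2.85% of all tested genes. NETO2, an auxiliary subunit of kainate receptors, was the most even of them, at 4.04, 2.999 and 3.61 CPM in the controls and 5.01, 6.52 and 6.65 CPM with H89, with differences of 0.73, 0.85 and 0.87. TMEM154, a membrane protein, stood at 2.09, 2.52 and 4.33 CPM in the controls and at 4.93, 6.54 and 8.37 CPM with H89. STX11, a syntaxin of membrane fusion, and CMPK2, a mitochondrial nucleotide kinase, were highest in H89 3, at 3.84 and 10.2 CPM against 0.565 to 1.94 CPM in the controls. On the lower side stood HRAT92, TSPAN18, PHKG1, FOSB, MIR222 and STAB2, with p between 0.00195 and 0.00817. PHKG1, a catalytic subunit of phosphorylase kinase, stood at 2.13, 1.32 and 1.49 CPM in the controls and at 0.783, 0.522 and 0.508 CPM with H89. MIR222, the gene of a microRNA, stood at 2.61, 0.780 and 2.54 CPM in the controls and at 0.352, 0.538 and 0.198 CPM with H89. HRAT92, TSPAN18 and STAB2 were also below every control in each H89 library, and control 1 was the highest library for all 3.

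Most genes of mitosis had slightly higher levels in the H89 libraries. All 24 tested members of the list had a positive fitted value, against 45.2% of all genes, with a median of 0.70. Of these 0 were called, 5 had an unadjusted p under 0.05, and 15 of 24 had every H89 library above every control, against 2.85% of all genes. The medians were 0.18 in the rRNA-rich pair (20 of 24 positive), 0.46 in the rRNA-free pair (24 of 24) and 0.69 in H89 3 (22 of 24). Without H89 3 the fitted median was 0.66, and with a term for the kind of library it was 0.41. Control 1 was the lowest library for 23 of the 24. Within pairs 0 of 24 differed by 2-fold in H89 1 or H89 2, and 6 were at least 2-fold higher in H89 3, against 4.13% of all genes. At a mean of at least 5 CPM, 2-fold differences either way were seen at 0.206% of genes in the rRNA-rich pair and 0.562% in the rRNA-free pair. In these pairs 0 of 24 is thus near that share.

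BIRC5, which encodes survivin, a subunit of the chromosomal passenger complex, stood at 2.71, 7.498 and 4.61 CPM in the controls and at 8.30, 9.07 and 13.9 CPM with H89. AURKB, the kinase of that complex, stood at 0.956, 1.56 and 1.39 CPM in the controls and at 2.39, 1.88 and 3.36 CPM with H89. Every H89 library exceeded every control at both genes. The same held for the cyclins that drive entry into mitosis, with CCNB1 at 5.23, 12.6 and 9.34 CPM against 14.2, 15.1 and 18.5 CPM and CCNB2 at 2.61, 4.26 and 2.79 CPM against 5.48, 4.92 and 7.63 CPM. Fitted log2 fold changes were 1.09 ± 0.37 for BIRC5, 0.97 ± 0.36 for AURKB, 0.82 ± 0.31 for CCNB1 and 0.91 ± 0.34 for CCNB2, and none of the 4 passed the test. KIF11, CENPE and CDK1 overlapped between groups. The 24 genes of DNA replication had a lower median, at 0.29, and pair medians of 0.10, 0.17 and 0.06. Positive values were seen at 19, against 45.2% of all genes. The 2 genes FEN1 and RRM1 had every H89 library above every control, which held for 2.85% of all genes.

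The promoter of CCNB1 is printed as an example because its CCAAT boxes, in capitals, are shared by most of the list. It covers chr5:69166900-69167149 on the plus strand (RefSeq, GRCh38.p14).
CCNB1: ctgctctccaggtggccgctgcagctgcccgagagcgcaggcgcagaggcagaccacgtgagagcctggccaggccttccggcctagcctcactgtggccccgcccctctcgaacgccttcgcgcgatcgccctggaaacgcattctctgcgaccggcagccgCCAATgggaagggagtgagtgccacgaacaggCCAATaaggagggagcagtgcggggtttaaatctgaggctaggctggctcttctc
Its CCAAT boxes begin 87 and 55 bases before the start. Of 20 mitosis genes with a RefSeq promoter, 18 (90%) held CCAAT or its reverse complement ATTGG in the window of 300 bases, against 35.7% of all RefSeq promoters and 36.1% of those of tested genes. The list was not chosen by promoter sequence, and the count is a description of these genes.

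**Figure D3:**
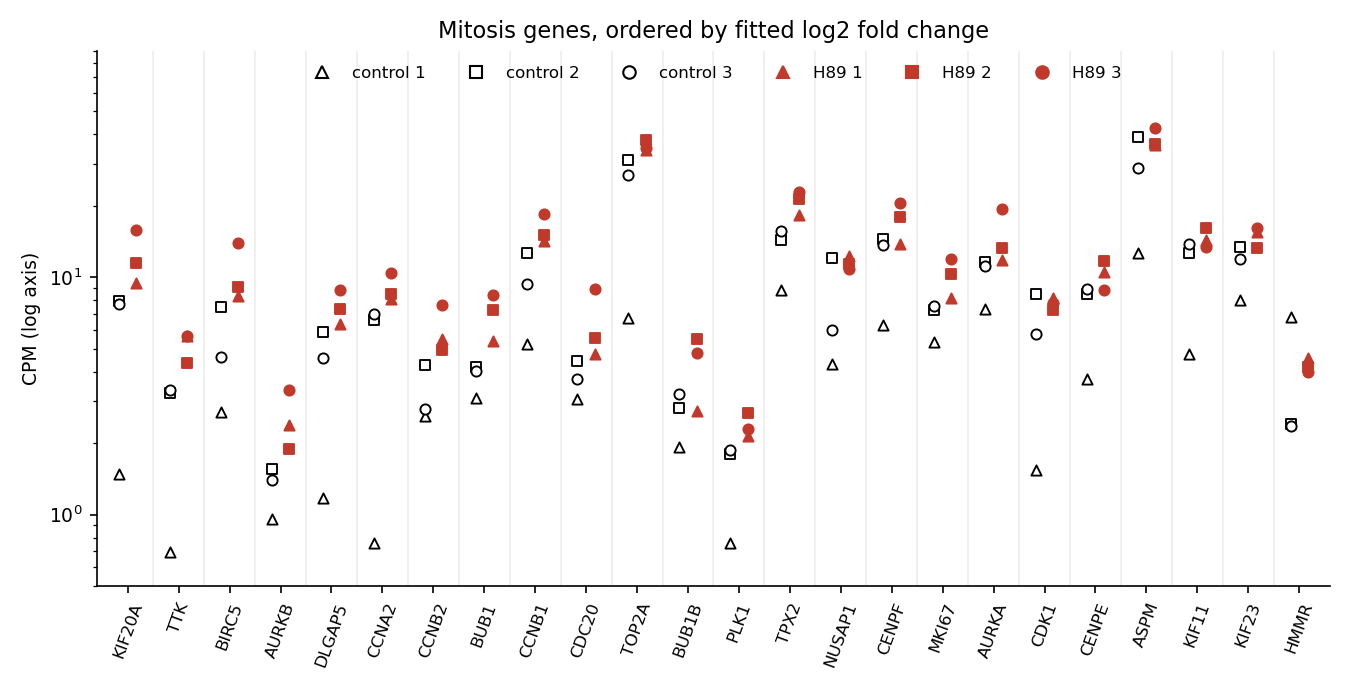
CPM (log axis) of the 24 mitosis genes in each library, ordered by fitted log2 fold change, with open symbols for controls and filled red symbols for H89. In 15 genes all filled symbols lie above all open ones, and control 1 (open triangle) is the lowest for all genes but HMMR.

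H89 3 differed from H89 1 and H89 2 in genes of lipid synthesis. Of the 25 genes of cholesterol synthesis and uptake, 21 were at least 2-fold higher in H89 3 than in control 3, against 4.13% of all tested genes, and the median difference was 1.63 (range 0.21 to 2.55). In the rRNA-rich and rRNA-free pairs 0 of 25 reached 2-fold, with medians of 0.11 and 0.19. The fitted median was 0.86 with H89 3 and -0.00032 without it. SCD, the desaturase that makes oleate, stood at 150.3, 153 and 171.0 CPM in the controls, at 166 and 185 CPM in H89 1 and H89 2 and at 983 CPM in H89 3. INSIG1, which holds the sterol sensor in the endoplasmic reticulum, stood at 55.2, 50.99, 56.7, 57.2 and 59.4 CPM in the first 5 libraries and at 239 CPM in H89 3. HMGCS1, the synthase before the rate-limiting step of the sterol pathway, stood at 29.8, 48.8, 57.8, 57.6 and 56.2 CPM and then at 214 CPM. At all 3 genes the first 5 libraries lay close together and H89 3 was far above the highest of them, by 2.41, 2.00 and 1.88 on the log2 scale. Fatty acid synthesis and desaturation followed, with 9 of 15 genes at least 2-fold higher in H89 3 and a median of 1.199, against 0.09 and 0.11 in the pairs. Genes of sterol export went the other way in H89 3, with a median of -1.09 over 8 genes and 4 at least 2-fold lower, against 13.8% of all genes. Among them ABCA1, the cholesterol exporter, stood at 255, 388 and 468 CPM in the controls, 354 and 359.8 CPM in H89 1 and H89 2 and 147 CPM in H89 3.

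By the gap to the nearest of the other 5 libraries, the genes highest in H89 3 were SCD, INSIG1, MVD, HMGCS1, TMEM97, DHCR7, KRT19 and FASN. Of these 8, which were picked by the values of H89 3, the cholesterol list holds 4 and the fatty acid list 2. KRT19, a keratin, stood at 68.2 to 112 CPM in the other 5 libraries and at 385 CPM in H89 3. The lowest were PDK4, DPT, AKR1C3, RIPOR3, ANGPTL4, PKD1L2, ABCA6 and FAM46C. PDK4, the kinase that shuts pyruvate dehydrogenase during fasting, stood at 7.08, 9.96 and 12.9 CPM in the controls, at 8.65 and 8.68 CPM in H89 1 and H89 2 and at 0.311 CPM in H89 3. DPT, the matrix protein dermatopontin, stood at 14.4 to 27.3 CPM in the other 5 libraries and at 1.55 CPM in H89 3. The genes just inside the 2-fold limit were PCYT2 on the high side and NR1D1 on the low side. Also among the 65 high genes, and picked out after their values were seen, were the interferon-inducible ISG15 (22.7, 46.4 and 49.6 CPM in the controls, 60.8 and 50.4 in H89 1 and H89 2, 196 in H89 3) and MX1 (12.9, 50.1 and 77.9, then 77.7 and 66.6, then 220.3 CPM).

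Cytoskeletal genes of the SRF and MRTF factors were also higher in H89 3. Their median difference was 1.24, with 24 of 24 positive and 17 at least 2-fold higher, against 45.2% and 4.13% of all genes. In the rRNA-free pair the median was 0.33 with 23 of 24 positive, and in the rRNA-rich pair -0.08 with 2 of 24 positive, so H89 1 and H89 2 went opposite ways by small amounts. Over all genes 46.9% were positive in each of these pairs. ACTB, cytoplasmic actin, stood at 1837, 1621 and 1115 CPM in the controls and at 1509, 1859 and 3790.1 CPM with H89. RHOB, a small GTPase, was higher in every H89 library than in every control, at 136, 100.1 and 100.7 CPM against 144, 147 and 336 CPM, with differences of 0.52, 0.55 and 1.74 and a fitted log2 fold change of 0.90 ± 0.52.

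NF-kappaB and cytokine targets were lower in H89 3, where 18 of 19 were below control 3 with a median of -1.04 and 10 were at least 2-fold lower. Over all tested genes, 45.2% were above control 3 in H89 3 and 13.8% were at least 2-fold lower. For these targets the rRNA-rich pair had a median of 0.39 (14 of 19 positive) and the rRNA-free pair -0.11 (8 of 19 positive). The share positive over all genes was 46.9% in each pair. SOD2, mitochondrial superoxide dismutase and a target of NF-kappaB, ranged from 134 CPM in control 1 over 1147 and 2949.8 CPM in control 2 and control 3 to 2235, 3223 and 379.6 CPM with H89. CCL2, a monocyte chemokine, stood at 24.6, 464 and 426 CPM in the controls and at 564, 529 and 147 CPM with H89. At both genes control 1 and H89 3 were the low libraries, in opposite groups, and the groups overlap. The unfolded protein and integrated stress response had a median of 0.76 in H89 3, against -0.21 and 0.16 in the pairs. Of its 20 genes 8 were at least 2-fold higher in H89 3, against 4.13% of all genes. Among its members, the asparagine synthetase ASNS stood at 27.2 to 46.7 CPM in the other 5 libraries and at 132 CPM in H89 3.

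**Figure D4:**
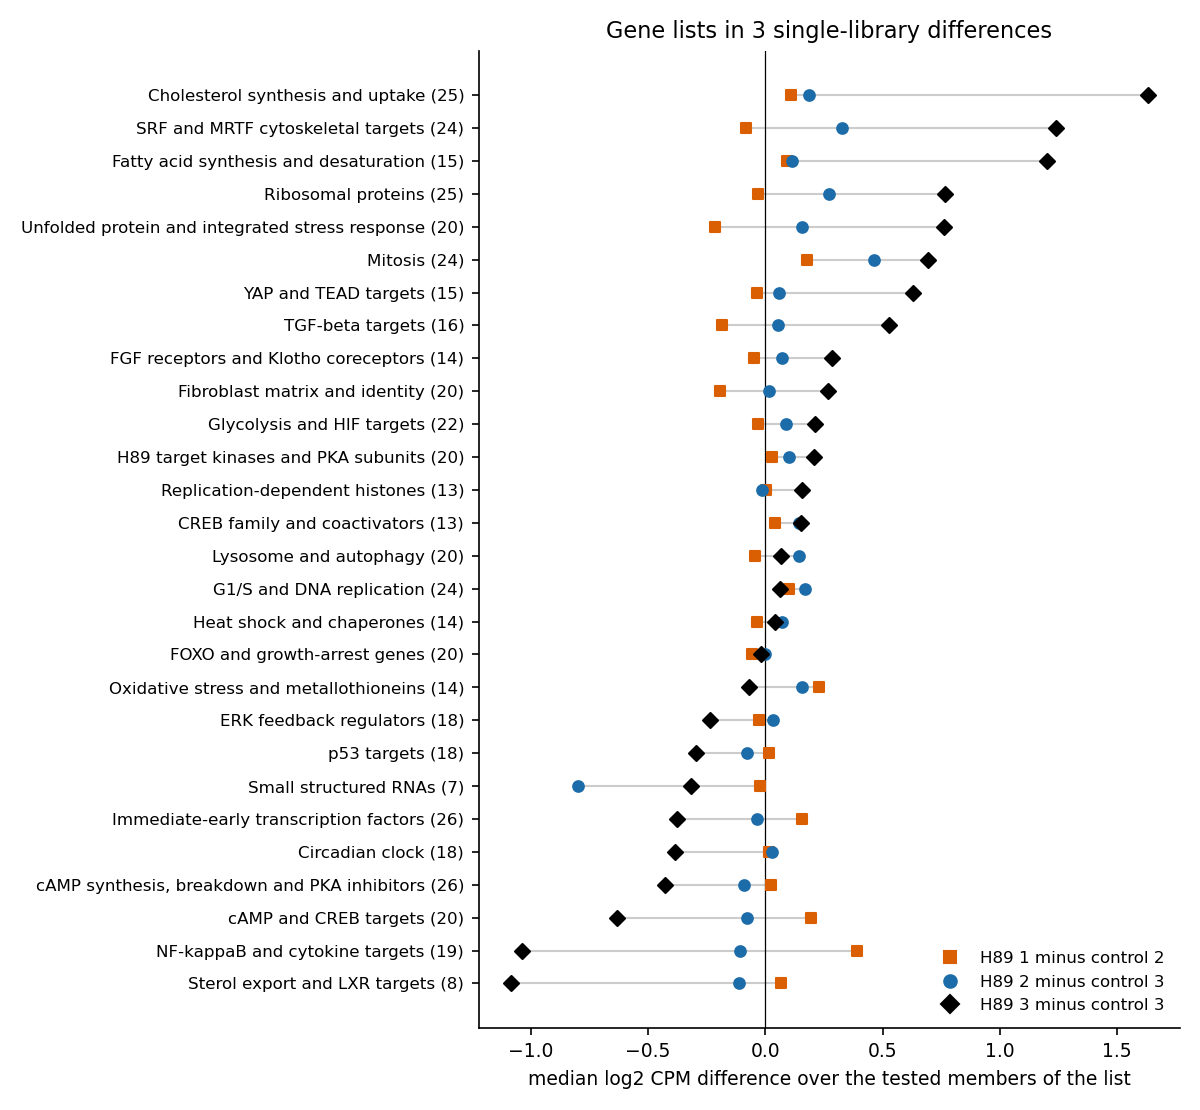
Median log2 CPM difference over the tested members of each gene list (number of members in brackets) for H89 1 minus control 2 (orange squares), H89 2 minus control 3 (blue circles) and H89 3 minus control 3 (black diamonds). The last 2 share control 3. Squares and circles stay within 0.47 of 0 for all lists shown but the small structured RNAs, while diamonds run from -1.09 for sterol export to 1.63 for cholesterol synthesis.

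The 65 high and 57 low genes of H89 3 were chosen by its values, so their levels there are a description, given beside those of the libraries with a mitogen. The median level of its 65 high genes was 168 CPM in H89 3 and 35.3 to 51.9 CPM in the other control and H89 libraries. It was 132 CPM in TPA 1 and 128 CPM in TPA+H89 1, 72.0 and 72.1 CPM in TPA 2 and TPA+H89 2, and 43.6 to 63.0 CPM in the 5 libraries with EGF. For the 57 low genes the median was 3.33 CPM in H89 3, 11.8 to 21.2 CPM in the other control and H89 libraries, 4.68 and 5.10 CPM in TPA 1 and TPA+H89 1, 8.69 and 11.5 CPM in TPA 2 and TPA+H89 2, and 13.3 to 17.5 CPM with EGF. H89 3, TPA 1 and TPA+H89 1 were thus the 3 libraries at the far end in both sets. Some of the 57 low genes, such as SNORD113-6, passed the mean of 5 CPM only through control 1. SCD stood at 1109 and 901 CPM in TPA 1 and TPA+H89 1 and at 197 and 342 CPM in TPA 2 and TPA+H89 2. DPT stood at 0.527 and 2.00 CPM in TPA 1 and TPA+H89 1 and at 5.88 and 4.59 CPM in the other pair. The immediate-early genes did not share this order: FOS was 14.3 CPM in H89 3 and 785, 1081, 920.0 and 582 CPM in the libraries with TPA, and EGR1 was 15.3 CPM against 465, 533, 747 and 391 CPM. In H89 3 both were within the range of the controls. What sets H89 3 apart was not tested. Its H89 label could not be checked from the counts, and the values above are those of the library labelled H89 3.

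**Figure D5:**
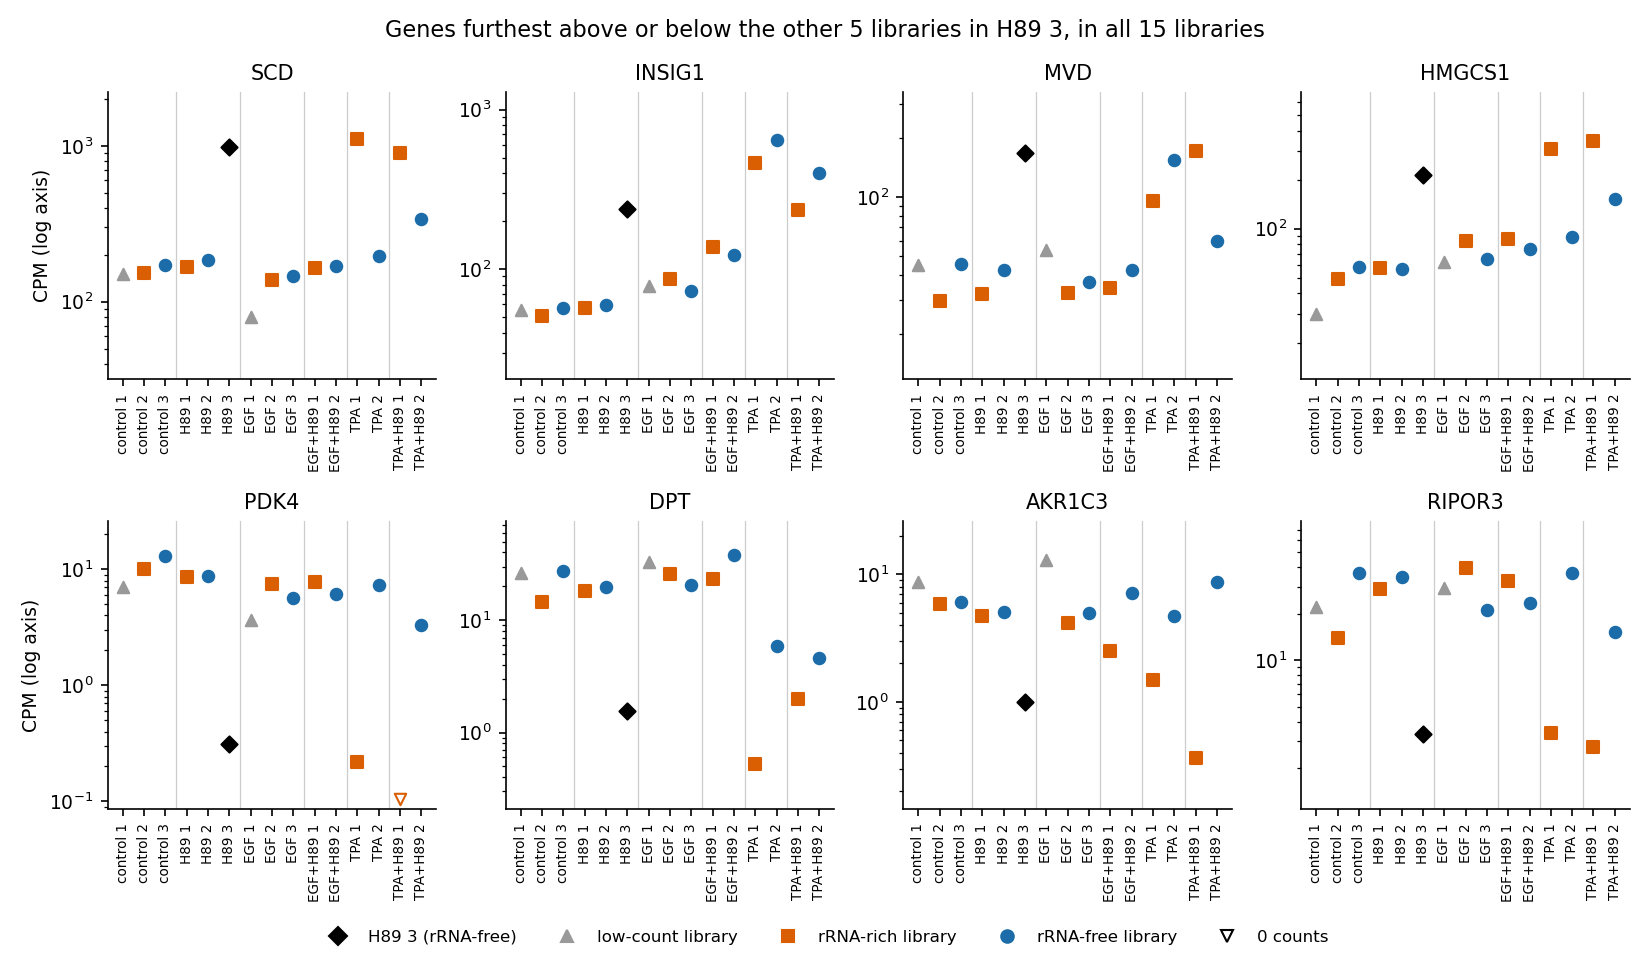
CPM (log axis) in all 15 libraries of the 4 genes furthest above and the 4 furthest below the other 5 control and H89 libraries in H89 3 (black diamond). An open triangle marks 0 counts. SCD, HMGCS1, PDK4, DPT and RIPOR3 in H89 3 lie near TPA 1 and TPA+H89 1, and far from H89 1 and H89 2.

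The other lists also had 0 genes called. The fitted median was 0.37 for ribosomal proteins, with pair medians of -0.03 and 0.27. Of the 25, 23 were positive, against 45.2% of all genes. Only 1 had every H89 library above every control, against 2.85% of all genes. In H89 3 the ribosomal proteins had a median of 0.77. There 24 of 25 were positive and 6 at least 2-fold higher, against 45.2% and 4.13% of all genes. The fitted median was 0.38 for YAP and TEAD targets, with pair medians of -0.04 and 0.06. In H89 3 their median was 0.63 with 13 of 15 positive, against 45.2% of all genes. Among them CYR61, a matricellular protein, stood at 80.9, 136 and 133 CPM in the controls and at 141, 174 and 201 CPM with H89. For the circadian clock the fitted median was -0.16, for p53 targets -0.03 and for FOXO and growth-arrest genes -0.05, with 0 called in each. TXNIP, which binds thioredoxin and restrains glucose uptake, was lower in every H89 library, at 363, 335 and 137 CPM, than in every control, at 453, 559 and 396 CPM. CITED2, a transcriptional coregulator induced by many stimuli, was higher in every H89 library, at 439.6, 578 and 712 CPM against 255, 406 and 362 CPM. Heat shock genes had a median of 0.18 and differences of 2-fold at 0 of 14 genes in each of the 3 single-library differences. At a mean of at least 5 CPM such differences were seen at 0.206% of genes in the rRNA-rich pair and 0.562% in the rRNA-free pair. In these pairs 0 of 14 is thus near that share. In H89 3, 4.13% of all tested genes were at least 2-fold higher and 13.8% lower.

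The libraries held the transcripts of fibroblasts. The 20 matrix and identity genes summed to 47722 to 90001 CPM in the 6 libraries, with 0 called. In the fit 2 of 20 were positive, against 45.2% of all genes, but control 1 had the highest sum of the 6. In the rRNA-rich pair 3 of 20 were positive, with a median of -0.19. In the rRNA-free pair 10 of 20 were positive, with a median of 0.02, and in H89 3 11 of 20, with a median of 0.27. Markers of other cells of skin were low: their sums were 25.3 to 37.8 CPM for 9 keratinocyte genes, 2.23 to 7.67 CPM for 7 endothelial genes, 1.25 to 4.32 CPM for 6 melanocyte genes, 39.8 to 67.2 CPM for 8 leukocyte genes and 46.6 to 72.9 CPM for 6 genes of pericytes and smooth muscle. No marker was at 0 counts in all 6 libraries, and 0 were called.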

How the data were processed

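Strand-specific RNA libraries were made after Ribo-Zero removal of ribosomal RNA, per the labels' protocols. The authors deposited 1 table of raw read counts per gene. HOMER and the build hg19/GRCh37 are named in the submitters' processing notes, the aligner is not given in the sources used here, and whether counting used strand is not stated. The labels name 3 sequencing platforms without tying them to samples. Of 28374 genes, 18575 passed edgeR's filterByExpr (minimum count 10). All 15 distinct libraries were fitted together with edgeR 4.0.16 (TMM normalisation, quasi-likelihood test, R 4.3.3), and H89 was contrasted with control at a false discovery rate of 0.05. limma 3.58.1 and DESeq2 1.42.0 gave alternatives. The scripts were tested on simulated data. Single-library differences are of log2 CPM with a prior count of 2, and printed CPM uses TMM library sizes without a prior. The 34 gene lists include 5 of markers of other cells, and 1 list is not reported here.

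Named genes were the 6 lowest p-values in each direction, the 8 furthest in each direction in both pairs of like libraries, the 8 furthest in each direction in H89 3, up to 4 genes per list in order of p, and 20 preset genes. Others (CREB1, SOD2, CCL2, ABCA1, KIF11, CENPE, CDK1, HMMR, RRM1, ISG15, MX1, KLF2, PCYT2, NR1D1, SNORD113-6 and the 4 genes called by DESeq2) were named after their values were seen. Members and lists were chosen with earlier results of these data known. Promoters matched 13771 tested genes (74.1%), too few for a check over all tested genes, so their motif shares are a description of the matched ones.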

Additional observations from a re-analysis of the deposited data

Results flagged for a closer look

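In these libraries the measured effect of H89 on CLK1 differed between cells without a mitogen and cells given EGF. The interaction was 1.44 on the log2 scale at an unadjusted p under 0.05 (edgeR). CLK1 was among the genes picked for large differences with H89 alone, a choice that favours a smaller effect with EGF. CLK1 was lower with H89 alone in H89 1, H89 2 and H89 3 than in control 2 and control 3, while control 1, at 44.2 CPM, lay below H89 1 and above H89 2 and H89 3. It was higher with EGF and H89 than with EGF in both pairs of like libraries, and EGF 1, which has no partner of its kind, stood at 55.6 CPM. After adjustment over all tested genes (edgeR) the difference did not pass the threshold.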

How the results depend on the processing

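The count of 0 called genes stood under size factors, both other filters, the control and H89 libraries alone, both control copies, a term for the kind of library with and without H89 3, limma-voom with weights, and leaving out each library in turn (0 to 0 called, with 166 to 986 genes at an unadjusted p under 0.05). DESeq2 called 4. A fit of control 2, control 3, H89 1 and H89 2 alone with a term for the kind of library, added after seeing the data, called 48 of 15172 genes, 13 higher and 35 lower. That fit has 1 residual degree of freedom and takes its spread across genes, with a biological coefficient of variation of 0.12 against 0.53 in the reported fit, so it describes these 4 libraries. In it EGR1, FOS and MMP3 were called higher at 2.19, 2.08 and 1.61, RHOB at 0.53, and DDIT4, CLK1 and CLK4 lower at -1.27, -1.04 and -1.08. All but RHOB had also been picked by their differences in these same libraries. RHOB was picked by its p in the fit over all libraries, which include these 4. The calls therefore add no support for any of them.

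FOS, at -0.70 as reported, became 1.07 with a term for the kind of library, 1.43 when H89 3 was also left out, and -1.23 to 1.64 when 1 library was left out (the highest without control 1, the lowest without control 2). SCD, at 1.49 as reported, was -0.013 with the term for kind and without H89 3. Of the other values of named genes 481 kept their direction and side of the threshold. Of the list medians under the alternatives, 112 moved by more than the spread between libraries and 194 did not. In 81 of these 306 the sign differed from the reported median, 7 of them without H89 3, among which SRF and MRTF targets went from 0.23 to -0.11 and the unfolded protein response from 0.14 to -0.22. With a term for the kind of library 8 of 34 differed. In the rRNA-rich pair the sign differed for 15 of 34 list medians. In the rRNA-free pair and in H89 3 minus control 3 it differed for 7 of 34 each. The share of genes with the same sign in both pairs was 48.3% to 49.0% across filters, while genes past 2-fold in both went from 4 to 20 with a mean of at least 1 CPM. No paired analysis was possible because the labels give no replicate numbers. The 4-library fit above joins libraries by kind, which was read from the counts and is no pairing by label. Depth limits KLB, with 2 to 4 counts in each H89 library, and FOSB in the rRNA-rich pair, with 1 count in control 2 and 6 in H89 1.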
